A study of Homo sapiens with 14 samples.

Results

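The D-type cyclins, the kinases they activate and the proteins that act beside them at the G1 to S transition of the cell cycle were examined as a group of 10 genes. The group held CCND1, CCND2, CCND3, CDK4, CDK6, CCNE1, CDK2, E2F1, CDKN1A and CDKN1B, out of 20033 protein-coding genes annotated in GENCODE release 44. Membership was set by gene name and used no measured value. For each gene, every accessible region (peak) overlapping the gene body or the 100 kb on either side was collected. The windows held 175 of the 72802 peaks of MM.1S and 178 of the 79969 peaks of RPMI8226.

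D-type cyclins bind CDK4 or CDK6, and the complexes phosphorylate the retinoblastoma protein, which otherwise holds E2F factors inactive. Released E2F1 activates genes of DNA replication, CCNE1 among them, and cyclin E with CDK2 completes the phosphorylation. CDKN1A (p21) and CDKN1B (p27) bind these complexes and restrain them. In multiple myeloma (MM), raised expression of 1 of the 3 D-type cyclins is a common early feature, through translocations that place CCND1 or CCND3 beside an immunoglobulin enhancer or through factors such as MAF that activate CCND2.

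Chromatin accessibility was measured by Omni-ATAC, in which a transposase cuts open chromatin, in 14 libraries of 2 human myeloma cell lines. MM.1S was represented by 3 libraries from monoculture (MONO), 3 from the upper chamber of a transwell shared with HS5 bone marrow stromal cells (TSW) and 3 from the lower chamber, in direct contact with HS5 (CO), and RPMI8226 by 1, 2 and 2 libraries of the same kinds. All groups were collected at 1 time point, cells from coculture were sorted as CD90- and CD38+ to remove HS5, and nothing in the labels says that repeats came from independent cultures. HS5 is an immortalised line and each myeloma line stands for 1 donor, which limits both as models of marrow. The authors deposited 1 list of peaks per line that pooled the 3 culture conditions. Each peak came with a number from 3 to 9 in MM.1S and from 3 to 5 in RPMI8226, read here as the number of libraries in which it was called (library support). The lists give no values for single libraries, so no comparison between MONO, TSW and CO was possible. All values below describe the pooled lists without a test. Intervals are 95% Wilson intervals that cover counting error only, over peaks, or over genes where genes are counted. Of 10 plasma cell marker genes, 10 had a peak at their own promoter in each line. In each line 9 had one in all libraries, the exceptions being JCHAIN in MM.1S and SLAMF7 in RPMI8226. Of 12 stromal marker genes, 9 had one in MM.1S and 6 in RPMI8226. COL3A1, THY1 (which encodes CD90) and LUM had none in either line. COL1A1, COL6A1, FN1 and PDGFRB had one in all libraries of both lines, and SPARC, TWIST1 and LOX in all 9 MM.1S libraries but none in RPMI8226. Such a peak in all libraries was present at 7 of 12 stromal genes in MM.1S and 4 in RPMI8226. The shares of all protein-coding genes with such a peak were 69.2% and 66.5%. Both stromal counts were lower shares than these, more so in RPMI8226, and with 12 genes the difference was not tested. The sort left a small residue of HS5 cells in the lower chamber samples, per the study's methods, and the part of stromal cells in the peaks below was not tested. Sequencing depth per library is stated by the study and not by the lists. A monoculture library of MM.1S (replicate 2) was much shallower than the other MM.1S libraries, and which libraries support a given peak cannot be told, so its part in peaks short of full support was not tested. By the study's counts, every other MM.1S library was deeper than every RPMI8226 library. The part of depth in the differences between the lines below was not tested.

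All 10 genes carried an accessible promoter in both lines. A peak within 2500 bp of an annotated start site of the gene itself (own promoter) was called in all 9 MM.1S libraries for 10 of 10 genes (interval 72.2% to 100%), against 69.2% of all protein-coding genes. That interval is over 10 genes chosen by name, which are not a random sample of genes, so it is no test of the group. In RPMI8226 the count for all 5 libraries was also 10 of 10, against 66.5% of all genes. A peak lay directly over the main start site of each gene in both lines. The share of all genes with a peak over the main start site is not given here, so these counts have no background beside them. It was called in all libraries for 9 of 10 genes in MM.1S, the exception being CCND1 (8 of 9), and for 9 of 10 genes in RPMI8226, the exception being CCND2 (4 of 5). The peak over the start site was wider in MM.1S at 8 of 10 genes, with median widths of 818.5 bp and 550.0 bp, and was wider in RPMI8226 at CCND1 and CDK4.

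**Figure D1:**
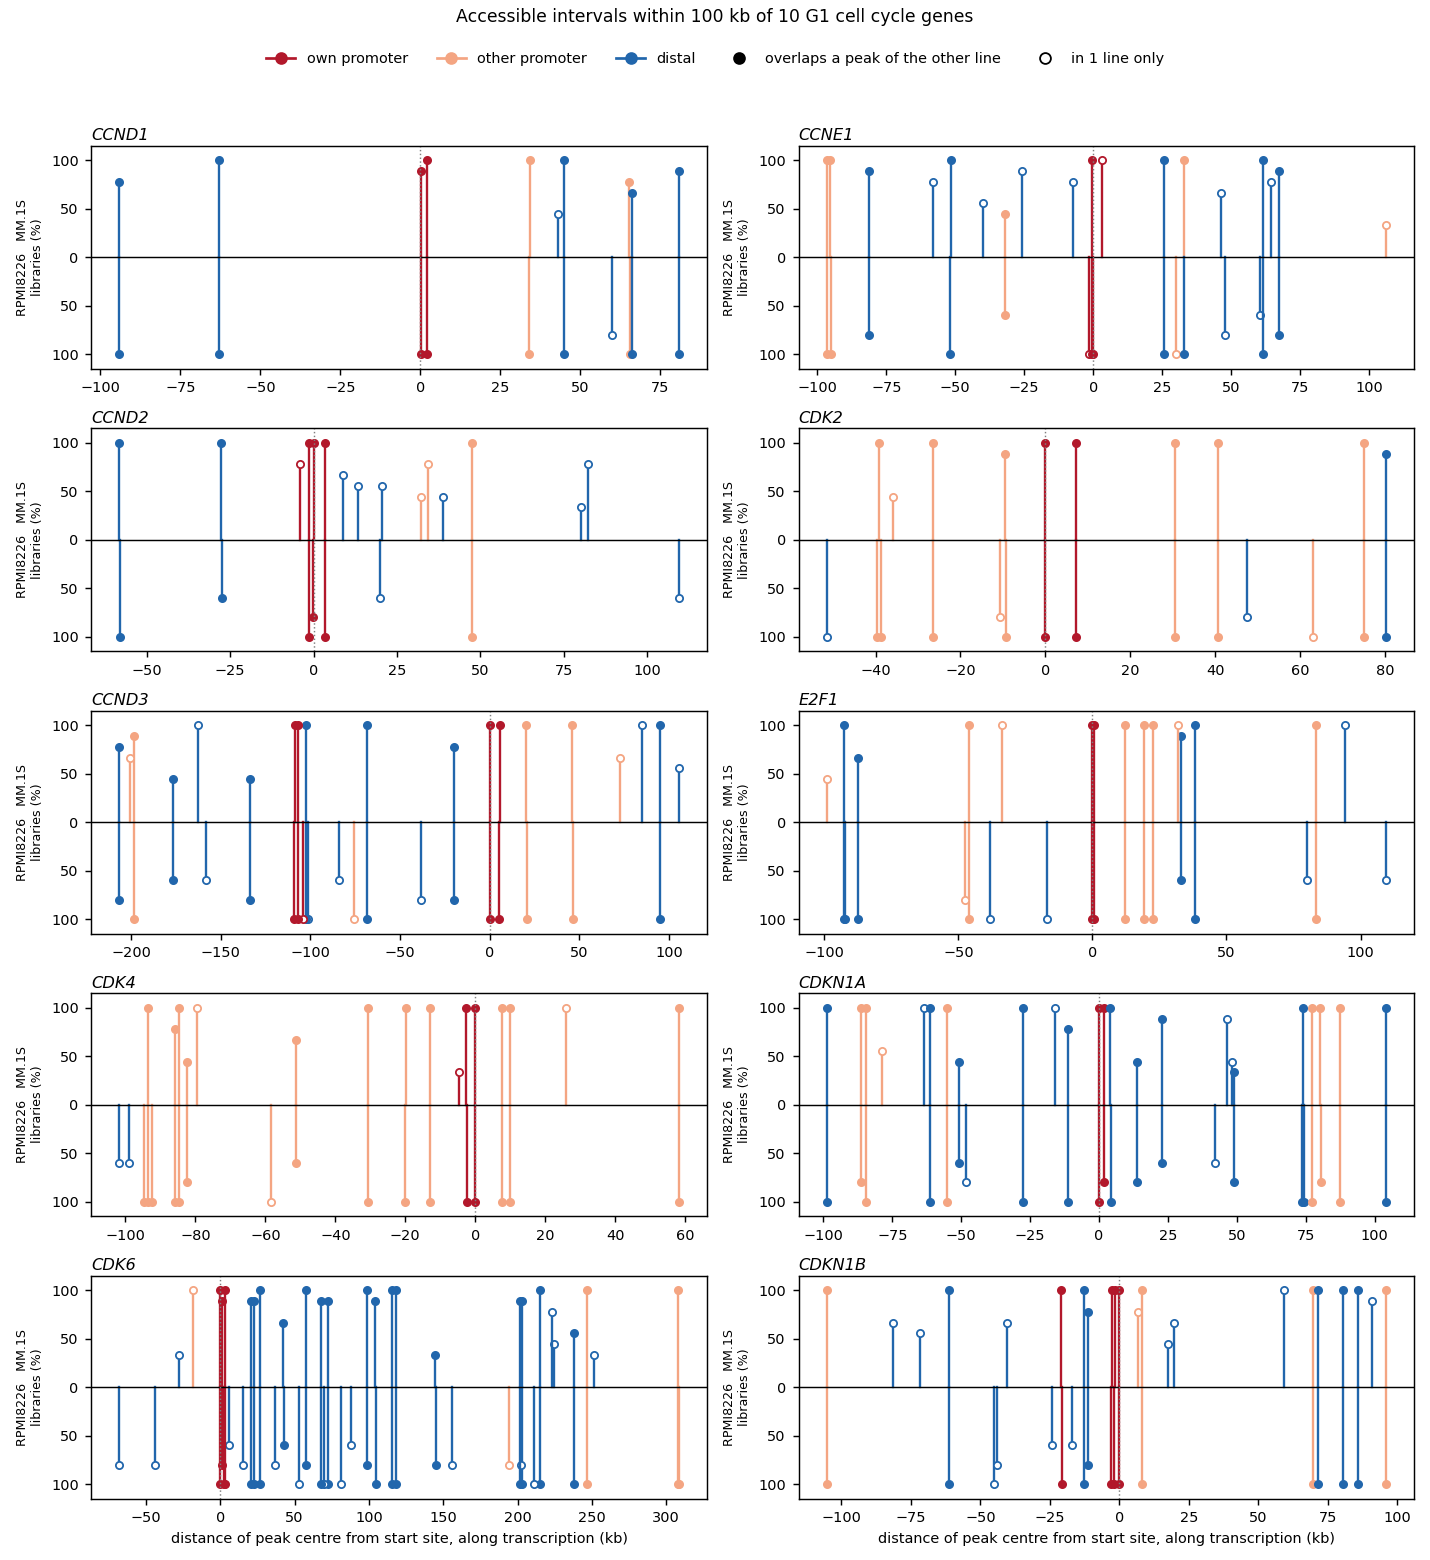
Each stem is a peak, placed by the distance of its centre from the main start site of the gene along the direction of transcription (x axis, kb), with the share of libraries supporting it (y axis, %) upward for MM.1S and downward for RPMI8226, coloured by class and with an open circle where the other line had no overlapping peak. Full-height stems stand at the start site in both lines except at CCND1 in MM.1S (8 of 9 libraries) and CCND2 in RPMI8226 (4 of 5 libraries), and open circles crowd downstream of CCND2 in MM.1S and within CDK6 in RPMI8226.

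Over the whole group, 126 of 175 MM.1S peaks overlapped an RPMI8226 peak by at least 1 bp (72.0%, interval 64.9% to 78.1%), against 64.6% of the MM.1S list. In the other direction 134 of 178 RPMI8226 peaks were shared (75.3%, interval 68.5% to 81.0%), against 62.0% of that list. Peaks near genes differ from peaks elsewhere, and among all peaks within 100 kb of any protein-coding gene the shared share was 66.0% in MM.1S and 64.2% in RPMI8226. The group's peaks lay at promoters more often than the lists as a whole. Distal peaks, more than 2500 bp from every annotated start site, made up 89 of 175 (50.9%, interval 43.5% to 58.2%) in MM.1S against 60.8% of the list, and 95 of 178 (53.4%, interval 46.0% to 60.6%) in RPMI8226 against 64.0%. Within any coding gene's window the distal shares were 57.2% and 60.3%, values that the group's intervals held.

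Sharing was more frequent at promoters than in distal chromatin. Of the group's promoter peaks, 69 of 86 in MM.1S (80.2%) and 74 of 83 in RPMI8226 (89.2%) were shared, against 71.8% and 76.6% of all promoter peaks. Of its distal peaks, 57 of 89 in MM.1S (64.0%) and 60 of 95 in RPMI8226 (63.2%) were shared, against 60.0% and 53.7%. Library support followed the same order. In MM.1S, 101 of 175 peaks (57.7%, interval 50.3% to 64.8%) were called in all 9 libraries, against 52.0% of the list, with 66 of 86 promoter peaks (76.7%, list 67.5%) and 35 of 89 distal peaks (39.3%, list 42.0%). In RPMI8226, 124 of 178 peaks (69.7%, interval 62.6% to 75.9%) were called in all 5 libraries, against 64.1%, with 72 of 83 promoter peaks (86.7%, list 74.2%) and 52 of 95 distal peaks (54.7%, list 58.5%). The intervals of the distal shares, 29.8% to 49.7% in MM.1S and 44.7% to 64.4% in RPMI8226, held the list's values. Those of the promoter shares were 66.8% to 84.4%, which held the list's value, and 77.8% to 92.4%, which did not. The lines differ in library number, so full support is not the same requirement in each.

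With 3 libraries per condition in MM.1S, a peak in 7 or more libraries must include each of MONO, TSW and CO. That held for 136 of 175 peaks of the group (77.7%), against 72.3% of the list. In RPMI8226 only full support carries that meaning, so the count was again 124 of 178, against 64.1%. At the other end, 7 MM.1S peaks and 22 RPMI8226 peaks of the group stood at the minimum of 3 libraries (4.00% and 12.4%, against 8.64% and 15.3% of the lists). Whether these less supported peaks belong to 1 culture condition cannot be told from the pooled number. Sharing was highest at full support. In MM.1S it lay between 14.3% and 46.7%, in no steady order, for peaks in 3 to 7 libraries, and was 85.0% for 8 and 88.1% for 9. In RPMI8226 the shares were 36.4%, 53.1% and 87.9% for 3, 4 and 5 libraries. The whole lists rose with support as well, from 32.7% to 81.3% in MM.1S and through 36.6%, 42.9% and 74.1% in RPMI8226, so the pattern is one of all peaks.

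**Figure D2:**
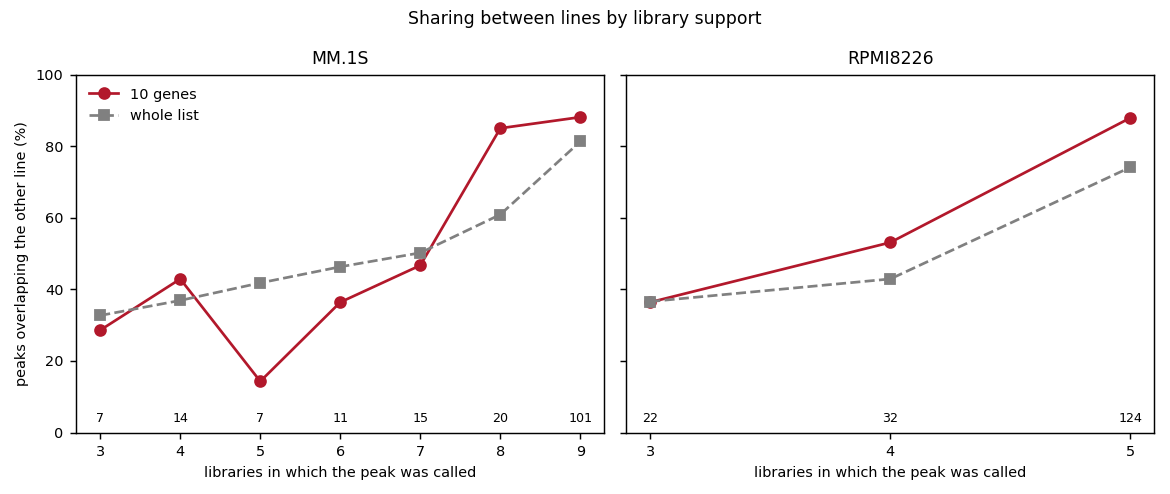
The share of peaks that overlap a peak of the other line (y axis, %) is drawn against the number of libraries in which the peak was called (x axis), for the 10 genes (circles) and the whole list (squares), with the number of peaks of the 10 genes along the bottom. The highest point of the 10 genes is at full support in both lines (88.1% and 87.9%), and in MM.1S the points for 3 to 7 libraries rest on 7 to 15 peaks each.

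Within the group the genes differed widely. RPMI8226 had more peaks at CCND3, CDK4, CDK6, CDK2 and E2F1, MM.1S had more at CCND2, CCNE1, CDKN1A and CDKN1B, and CCND1 had 10 in each. The order held at CCND2, CCND3 and CDK6 with narrower flanks, gene bodies alone, nearest peaks and wide peaks. At other genes it depended on the window: it turned at CDK4 with flanks of 50 kb (10 in MM.1S and 8 in RPMI8226) and among wide peaks (13 and 12), at E2F1 among wide peaks (10 and 9) and at CDKN1B in the gene body (6 and 8). The counts were equal under at least 1 of these settings at CCNE1, CDK2 and CDKN1A. CCND1, equal otherwise, had 3 and 8 wide peaks. The share of MM.1S peaks that were shared was lowest at CCND2 (6 of 15) and highest at CCND1 and CDK2 (90.0%), and in RPMI8226 ran from 63.9% at CDK6 to 90.9% at CDKN1A. Windows differ in length, from 206.0 kb at CDK2 to 431.7 kb at CDK6, so density is given per 100 kb of window, beside its percentile among all protein-coding genes.

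**Figure D3:**
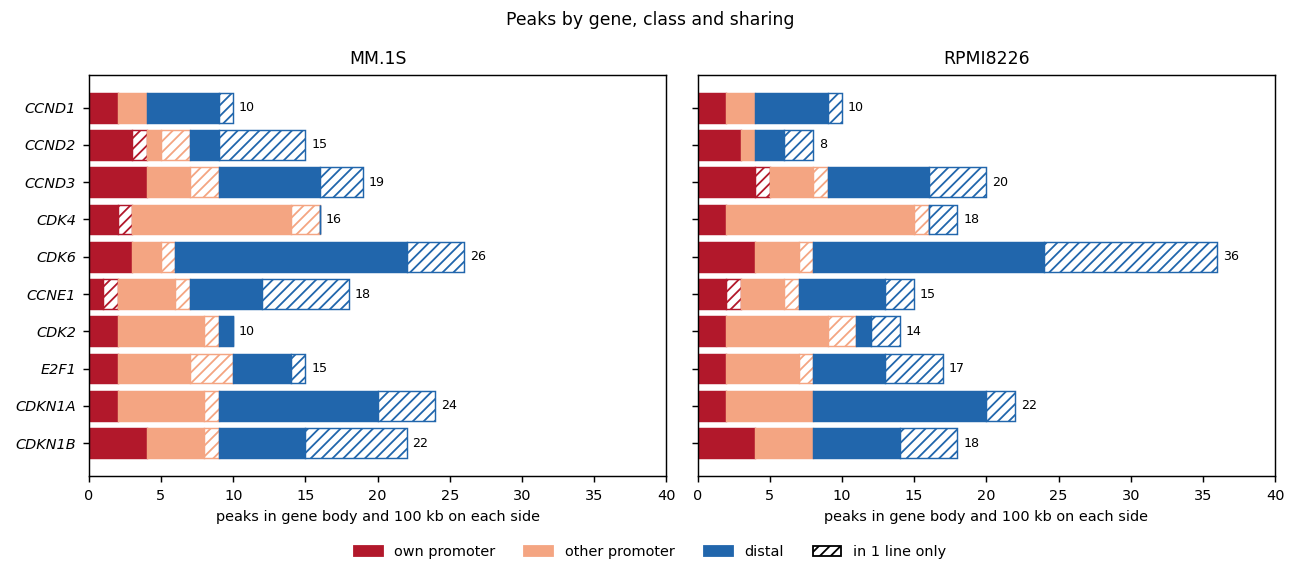
Bars give the number of peaks in each gene's window (x axis) in MM.1S and RPMI8226, stacked by class, with hatching for peaks found in 1 line only and the total at the end of each bar. CDK6 has the most peaks in RPMI8226 (36) and in MM.1S (26), CDK4 has no distal peak in MM.1S, and CCND2 has 15 peaks in MM.1S and 8 in RPMI8226.

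Of the D-type cyclins, CCND1 (chr11:69641156-69654474, forward strand, hg38) had the most similar layout in the 2 lines. Its window held 10 peaks in each line, 2 own promoter, 2 at promoters of the neighbours LTO1 and FGF19, and 6 distal, and 9 of 10 were shared in each direction. The peak over the start site measured 470 bp with support in 8 of 9 libraries in MM.1S and 581 bp with 5 of 5 in RPMI8226, and both held a match to the letters of an E2F site (TTTCCCGC or TTTGGCGC). The second own promoter peak, centred about 2 kb downstream, was wider (911 bp and 785 bp) and had full support in both lines. No distal peak lay within the gene body. In RPMI8226, 9 of 10 peaks had full support, and in MM.1S 4 of 10. Density was 4.69 peaks per 100 kb in each line (percentiles 57.5 and 53.7), near the middle of all genes.

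CCND2 (chr12:4269771-4305353, forward strand) showed the most uneven layout of the cyclins. MM.1S had 15 peaks in the window and RPMI8226 8, a density of 6.37 per 100 kb (percentile 73.3) against 3.40 (percentile 37.7). In MM.1S, 9 of the 15 were line-only, and in RPMI8226 2 of 8. The promoter region itself was open in both lines. Over the start site the MM.1S peak measured 516 bp with 9 of 9 libraries and the RPMI8226 peak 356 bp with 4 of 5. An upstream own promoter peak at about -1.4 kb was 1365 bp wide in MM.1S and 870 bp in RPMI8226, and a peak about 3.3 kb downstream measured 443 bp and 385 bp, both with full support in both lines. MM.1S had a further own promoter peak at -4.04 kb, 741 bp wide and in 7 of 9 libraries, with no RPMI8226 counterpart.

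Most of the difference lay downstream of the CCND2 start site. Between chr12:4282237 and chr12:4312643, a stretch of 30407 bp from the body of CCND2 into the neighbour TIGAR (a regulator of glycolysis), MM.1S had 6 consecutive line-only peaks. Their widths were 864, 403, 324, 553, 504 and 359 bp, and they were called in 6, 5, 5, 4, 7 and 4 of 9 libraries, so none had full support. The fourth and the fifth lay within 2500 bp of TIGAR start sites. RPMI8226 had 1 peak in that stretch, at chr12:4293643-4293842, 200 bp wide and in 3 of 5 libraries, which overlapped no MM.1S peak. Beyond it, a peak at a start site inside TIGAR was shared (978 bp, 9 of 9, and 939 bp, 5 of 5). Upstream of CCND2 both distal peaks were shared. The one at -27.7 kb was 1240 bp wide with 9 of 9 libraries in MM.1S and 329 bp with 3 of 5 in RPMI8226, and the one at -58.3 kb had full support in both lines (736 bp and 868 bp).

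Part of the shared upstream promoter peak of CCND2, chr12:4272548-4272634 on the forward strand, is shown for its match, in capitals, to the AP-1 letters TGACTCA, the only such match at CCND2 common to the peaks of both lines. The match lies in an intron of a longer CCND2 transcript and in no exon.
CCND2 upstream interval: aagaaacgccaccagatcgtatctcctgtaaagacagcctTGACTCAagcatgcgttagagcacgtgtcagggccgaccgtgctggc
The wider MM.1S peak also held a match to the core of the MAF recognition element (MAF core, TGCTGAC), outside the RPMI8226 peak. No AP-1 or MAF core match was present in the 6 MM.1S-only peaks downstream.

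CCND3 (chr6:41934934-42050357, reverse strand) has a long form that starts about 107 kb upstream of the main start site, beside TAF8. The main start site lay under nearly identical peaks, 1338 bp wide in MM.1S (9 of 9 libraries) and 1337 bp in RPMI8226 (5 of 5), the widest of the start site peaks in both lines. At the far start site both lines had peaks with full support (805 bp and 609 bp). The window held 19 MM.1S peaks and 20 RPMI8226 peaks, 14 shared in each direction. The widest distal peak, at -68.7 kb in the intron between the start sites, measured 939 bp in MM.1S and 854 bp in RPMI8226 with full support in both.

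Within that intron RPMI8226 had a run of 3 line-only peaks between chr6:42017010 and chr6:42043133. They measured 654, 300 and 194 bp, were called in 5, 3 and 5 of 5 libraries, and each held an AP-1 match. An own promoter peak at -104.1 kb (372 bp, 5 of 5) was also found in RPMI8226 only. MM.1S had 2 line-only distal peaks with full support in the window and 3 in all. The stretches shown next, written on the forward strand with matches in capitals, show an interval present in both lines at -20.0 kb, with an AP-1 match (TGAGTCA is the reverse complement of TGACTCA) and a MAF core, and the last peak of the RPMI8226 run. They are chr6:41961827-41961933 and chr6:42042969-42043055.
CCND3 intron interval: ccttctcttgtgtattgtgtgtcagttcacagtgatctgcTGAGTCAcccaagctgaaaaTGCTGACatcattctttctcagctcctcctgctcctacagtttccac
CCND3 RPMI8226 interval: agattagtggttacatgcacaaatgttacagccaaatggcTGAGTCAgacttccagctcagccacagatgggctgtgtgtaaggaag
The shared interval was called in 7 of 9 MM.1S libraries (537 bp) and 4 of 5 RPMI8226 libraries (247 bp).

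Of the kinases, CDK4 (chr12:57747727-57756013, reverse strand) lies among 11 other protein-coding genes within its window. Most of its peaks lay within 2500 bp of a neighbour's start site. Start sites of genes that are not protein-coding were counted too, and some peaks in an intron of CTDSP2 were classed as promoter only through them. Of 16 MM.1S peaks, 3 were own promoter, 13 other promoter and 0 distal, and of 18 RPMI8226 peaks 2, 14 and 2. The peak over the start site, which also lay within 2500 bp of a MARCHF9 start site, had full support in both lines (833 bp and 870 bp). The neighbours with peaks included OS9, TSPAN31, METTL1, TSFM and CTDSP2. The 2 distal peaks of RPMI8226 were line-only, at -98.9 kb and -101.7 kb, narrow (184 bp and 198 bp) and at the minimum of 3 libraries. The distal density of CDK4 was the lowest of the 10 genes in both lines (0.00 and 0.96 per 100 kb, percentiles 3.38 and 25.2).

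CDK6 (chr7:92604921-92836573, reverse strand), the longest gene of the group at 231.7 kb, had the opposite makeup. Distal peaks made up 20 of its 26 peaks in MM.1S and 28 of 36 in RPMI8226, and 17 and 25 of them lay within the gene body. The distal density was 4.63 per 100 kb in MM.1S (percentile 95.6) and 6.49 in RPMI8226 (percentile 98.4). The peak over the start site measured 433 bp (9 of 9) in MM.1S and 203 bp (5 of 5) in RPMI8226. About 3 kb downstream, MM.1S had 1 peak of 1459 bp, with 9 of 9 libraries, where RPMI8226 had 2 of 560 bp and 538 bp, with 5 of 5 each. In each line 16 distal peaks were shared. The widest were at 104.3 kb in MM.1S (1052 bp, 8 of 9 libraries) and at 115.5 kb in RPMI8226 (787 bp, 5 of 5), both matched by a peak of the other line.

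The line-only peaks of CDK6 were mostly in RPMI8226. There 12 distal peaks had no MM.1S counterpart, 4 of them in all 5 libraries, and in MM.1S 4 distal peaks had no RPMI8226 counterpart, 0 of them in all 9. The 4 in RPMI8226 were intronic, at 52.9, 69.7, 81.2 and 210.8 kb from the start site, and measured 241, 331, 466 and 233 bp. The MM.1S-only distal peaks were called in 3, 4, 7 and 3 libraries. The only MM.1S-only peak of the CDK6 window with full support lay at -18.4 kb at a start site of the antisense transcript CDK6-AS1 (290 bp).

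3 intronic intervals of CDK6 are shown on the forward strand, with AP-1 and MAF core matches in capitals. The first and the second were present in both lines, 948 bp (9 of 9) and 610 bp (5 of 5) at 26.6 kb, and 531 bp (8 of 9) and 512 bp (5 of 5) at 22.9 kb. The third was the RPMI8226-only peak at 69.7 kb, with 2 AP-1 matches. Their positions are chr7:92809840-92809956, chr7:92813652-92813861 and chr7:92766839-92766944.
CDK6 intron interval 1: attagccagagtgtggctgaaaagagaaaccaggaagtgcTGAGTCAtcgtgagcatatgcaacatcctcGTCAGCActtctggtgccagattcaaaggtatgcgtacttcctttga
CDK6 intron interval 2: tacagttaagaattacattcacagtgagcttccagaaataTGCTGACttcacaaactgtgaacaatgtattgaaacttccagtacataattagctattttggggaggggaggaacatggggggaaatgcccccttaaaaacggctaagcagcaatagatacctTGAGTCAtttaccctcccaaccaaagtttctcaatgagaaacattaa
CDK6 RPMI8226 interval: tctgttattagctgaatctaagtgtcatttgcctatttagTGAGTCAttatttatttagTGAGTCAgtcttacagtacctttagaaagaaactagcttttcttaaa
In the first 2 intervals the matches to TGACTCA and to TGCTGAC, on either strand, share no base. Longer or other forms of a MAF site, which can include AP-1 letters, were not searched.

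Over all 10 genes, AP-1 letters followed the lists. In the central 200 bp of distal peaks they occurred in 6 of 89 in MM.1S (6.74%, list 9.17%) and 12 of 95 in RPMI8226 (12.6%, list 17.0%). Among line-only distal peaks the counts were 0 of 32 in MM.1S (list 5.65%) and 7 of 35 in RPMI8226 (20.0%, list 21.8%), and among shared distal peaks 6 of 57 (10.5%, list 11.5%) and 5 of 60 (8.33%, list 12.9%). The 200 bp were kept where a peak was narrower, so a match could lie outside the peak. Within whole peaks the line-only counts were 1 of 32 and 6 of 35. In the central 200 bp the MAF core occurred in 4 of 89 and 7 of 95 distal peaks (4.49% and 7.37%, lists 5.70% and 5.90%). These shares are near the lists' and set nothing about the group apart.

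CCNE1 (chr19:29811991-29824312, forward strand), which encodes cyclin E1, had 18 peaks in MM.1S and 15 in RPMI8226. Its distal peaks all lay outside protein-coding genes, 11 in MM.1S and 8 in RPMI8226, and 5 and 6 of them were shared. The MM.1S distal density of 5.18 per 100 kb stood at percentile 97.3, and the RPMI8226 density of 3.77 at percentile 84.5. The MM.1S peak over the start site measured 836 bp (9 of 9) and overlapped 2 RPMI8226 peaks of 379 bp and 307 bp (5 of 5 each), the narrower of which covered the start site. Own promoter peaks found in 1 line only and in all its libraries were present in both, at 3.39 kb in MM.1S (337 bp) and at -1.39 kb in RPMI8226 (236 bp). Upstream, MM.1S had 4 line-only distal peaks, at -57.9, -39.98, -25.7 and -7.30 kb, in 7, 5, 8 and 7 of 9 libraries. RPMI8226 had none there. The distal peak at 61.5 kb was the widest in MM.1S (773 bp, 9 of 9) and had a counterpart of 622 bp (5 of 5). In RPMI8226 the widest was at 32.9 kb (1081 bp, 5 of 5). Its MM.1S counterpart (1529 bp, 9 of 9) was classed as promoter through a start site of a gene that is not protein-coding. This interval therefore counts among the shared distal peaks of RPMI8226 only.

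CDK2 (chr12:55966781-55972789, forward strand), the kinase partner of cyclin E, lies in a gene-dense window with 7 other protein-coding genes. Its start site peak, also within 2500 bp of a PMEL start site, measured 950 bp and 850 bp with full support in both lines, and began at the same base. A second own promoter peak, over the neighbour RAB5B, was also alike in the 2 lines (1112 bp and 1107 bp). Of 10 MM.1S peaks 9 were shared, and of 14 RPMI8226 peaks 10. Distal peaks were few, 1 in MM.1S and 3 in RPMI8226. The one at 80.3 kb was shared (493 bp, 8 of 9, and 331 bp, 5 of 5), and 1 of the 2 RPMI8226-only distal peaks, at -51.6 kb, had full support (357 bp).

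E2F1 (chr20:33675477-33686385, reverse strand), the transcription factor freed by cyclin-CDK activity, had 2 own promoter peaks in each line, all with full support. They measured 594 bp over the start site and 747 bp just downstream in MM.1S, and 391 bp and 611 bp in RPMI8226. The window held 15 MM.1S peaks, 12 of them in all 9 libraries, and 17 RPMI8226 peaks, 13 of them in all 5. Distal peaks numbered 5 in MM.1S and 9 in RPMI8226, most within the neighbours CBFA2T2 and ZNF341. RPMI8226 had 4 line-only distal peaks, and the 2 with full support lay upstream at -16.8 kb (566 bp) and -38.3 kb (453 bp). MM.1S had 1, at 94.3 kb within CBFA2T2 (409 bp, 9 of 9), and also a line-only peak with full support at the promoter of the neighbour PXMP4 (955 bp).

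Promoter sequences from RefSeq (GRCh38.p14, 250 bases before to 50 after each start site) were matched for 7 of the 10 genes: CCND3, CDK4, CDK6, CCNE1, E2F1, CDKN1A and CDKN1B. For CCND3 and CDK6 the RefSeq start differs from the GENCODE main start used above. The E2F letters occurred in the promoter of E2F1 alone among the 7, and in 797 of 35116 RefSeq promoters (2.27%). Only TTTCCCGC and TTTGGCGC were searched, so other forms of an E2F site were not counted or capitalised. GC box letters (GGGCGG) occurred in 5 of 7 (45.0% of all promoters) and the CCAAT box in 3 of 7 (34.6%). The 250 bases before the start site are shown for E2F1 (chr20:33686386-33686635, reverse strand), CCNE1 (chr19:29811741-29811990, forward strand) and CDKN1B (chr12:12717118-12717367, forward strand), each written in the direction of transcription with E2F, GC box and CCAAT box matches on either strand in capitals. They were chosen to set the promoter with an E2F match beside a GC-box promoter and a CCAAT-box promoter of genes whose start sites were open in all libraries.
E2F1 promoter: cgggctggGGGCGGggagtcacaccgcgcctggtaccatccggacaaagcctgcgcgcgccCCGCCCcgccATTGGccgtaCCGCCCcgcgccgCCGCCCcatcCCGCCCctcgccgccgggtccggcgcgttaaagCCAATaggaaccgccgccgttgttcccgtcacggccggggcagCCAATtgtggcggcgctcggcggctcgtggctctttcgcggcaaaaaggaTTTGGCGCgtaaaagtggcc
CCNE1 promoter: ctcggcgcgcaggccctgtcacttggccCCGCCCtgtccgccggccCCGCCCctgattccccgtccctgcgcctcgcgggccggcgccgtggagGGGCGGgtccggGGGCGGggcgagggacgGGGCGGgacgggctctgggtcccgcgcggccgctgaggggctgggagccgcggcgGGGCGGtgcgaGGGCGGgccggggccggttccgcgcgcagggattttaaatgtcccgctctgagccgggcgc
CDKN1B promoter: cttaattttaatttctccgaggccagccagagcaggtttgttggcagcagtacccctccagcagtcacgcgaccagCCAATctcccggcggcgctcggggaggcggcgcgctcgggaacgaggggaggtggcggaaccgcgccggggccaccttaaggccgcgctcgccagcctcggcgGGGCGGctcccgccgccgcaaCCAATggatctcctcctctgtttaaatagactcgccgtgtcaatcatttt
The E2F1 stretch held 1 E2F, 5 GC box and 3 CCAAT box matches, the CCNE1 stretch 7 GC box matches, and the CDKN1B stretch 1 GC box and 2 CCAAT box matches. In the peaks' central 200 bp, GC box letters occurred in 39.5% of the group's promoter peaks in MM.1S (list 35.2%) and 38.6% in RPMI8226 (list 31.7%).

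The inhibitor CDKN1A (chr6:36676460-36687337, forward strand) had the highest peak density of the group in both lines, 11.38 per 100 kb in MM.1S (percentile 97.1) and 10.43 in RPMI8226 (percentile 94.5), and its distal density stood at percentiles 99.6 and 98.6. Its window held 24 MM.1S peaks and 22 RPMI8226 peaks, of which 19 (79.2%) and 20 (90.9%) were shared. Over the start site the peaks measured 804 bp (9 of 9) and 519 bp (5 of 5). A second own promoter peak, centred at 1.64 kb in MM.1S (767 bp, 9 of 9) and 1.78 kb in RPMI8226 (342 bp, 4 of 5), held E2F and AP-1 matches. A distal peak at 4.12 kb in the gene body was shared with full support (657 bp and 524 bp). The widest distal peaks lay about 74 kb downstream within CPNE5, where MM.1S had 1 peak of 1382 bp and RPMI8226 had 2 of 511 bp and 663 bp, all with full support.

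Upstream of CDKN1A, 6 distal peaks of RPMI8226 and 7 of MM.1S were found. The peak at -11.4 kb was shared, 539 bp wide with 7 of 9 libraries in MM.1S (chr6:36667020-36667558) and 417 bp wide with 5 of 5 in RPMI8226 (chr6:36667117-36667533). It is shown as the only peak of the group in either line with a match to the p53 response element, 20 bases with at most 2 mismatches. CDKN1A is a classical target of p53. The match, in capitals, has 1 mismatch to the consensus, and the stretch chr6:36667218-36667317 is on the forward strand and in no exon.
CDKN1A upstream interval: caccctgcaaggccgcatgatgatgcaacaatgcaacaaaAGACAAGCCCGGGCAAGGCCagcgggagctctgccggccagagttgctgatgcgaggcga
In the central 200 bp, such matches occurred in 0.287% of all MM.1S distal peaks and 0.258% of all RPMI8226 distal peaks. Nearby at -15.9 kb, MM.1S had a line-only peak of 979 bp with 9 of 9 libraries, and another at -63.5 kb (371 bp, 9 of 9).

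CDKN1B (chr12:12685498-12722369, forward strand) had 4 own promoter peaks in each line, all shared and all with full support. The one over the start site measured 890 bp in MM.1S and 606 bp in RPMI8226, the next were centred at -1.61 kb and -2.82 kb in MM.1S, and the last at -20.8 kb in MM.1S, at the start of a longer form shared with the region of GPR19 (1151 bp and 633 bp). The window held 22 MM.1S peaks and 18 RPMI8226 peaks, 14 shared in each direction. Of the 13 distal MM.1S peaks 7 were line-only, 1 of them in all 9 libraries, and of the 10 distal RPMI8226 peaks 4 were line-only, 1 in all 5. The longest runs lay on opposite sides of the start site. MM.1S had 3 consecutive line-only peaks downstream within APOLD1, from chr12:12734833 to chr12:12776669 (4, 6 and 9 of 9 libraries), and RPMI8226 had 3 upstream, from chr12:12672346 to chr12:12693463 (5, 4 and 3 of 5 libraries). An MM.1S-only peak in 6 of 9 libraries also lay within that upstream stretch, at -40.5 kb. The widest distal peak was at -12.9 kb in MM.1S (794 bp, 9 of 9), with a 172 bp counterpart (5 of 5), and at 80.4 kb in RPMI8226 (638 bp, 5 of 5), with a 739 bp counterpart (9 of 9).

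**Figure D4:**
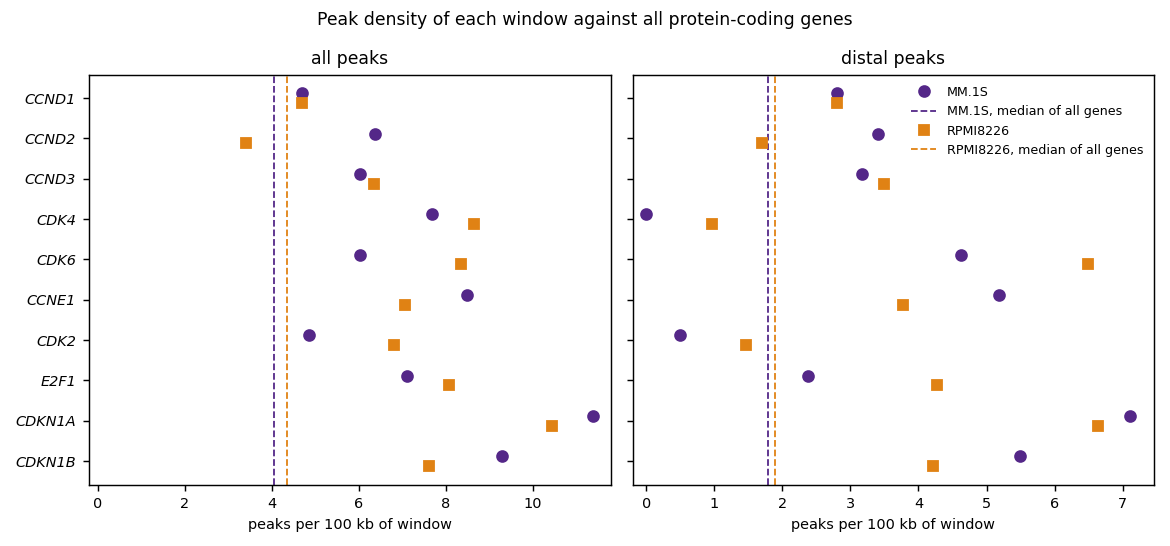
Points give the number of peaks per 100 kb of window for each gene (x axis, all peaks on the left and distal peaks on the right) in MM.1S (circles) and RPMI8226 (squares), and dashed lines give the median of all 20033 protein-coding genes. CDKN1A lies farthest right for all peaks (11.38 and 10.43) and for distal peaks, CDK4 lies at or under 0.96 for distal peaks, and CCND2 falls on opposite sides of the medians (4.05 and 4.36) in the 2 lines.

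Intervals found in both lines could be compared directly. There were 119 pairs of 1 MM.1S peak and 1 RPMI8226 peak, 64 at promoters and 55 distal, with a median distance between centres of 62.0 bp. Of these, 75 had full support in both lines, 51 at promoters and 24 distal. In 99 of 119 pairs the MM.1S interval had the larger width (83.2%), with median widths of 621 bp and 485 bp. All peaks of the lists differ the same way, with median widths of 536 bp and 362 bp, and the offset of the pairs is in the same direction. Differences in width at a single gene, as at CCND2 or CDK6, are to be read against that offset. How peak edges from several libraries were joined is not given in the sources used here. The part of library number and of sequencing depth in the widths was not tested.

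**Figure D5:**
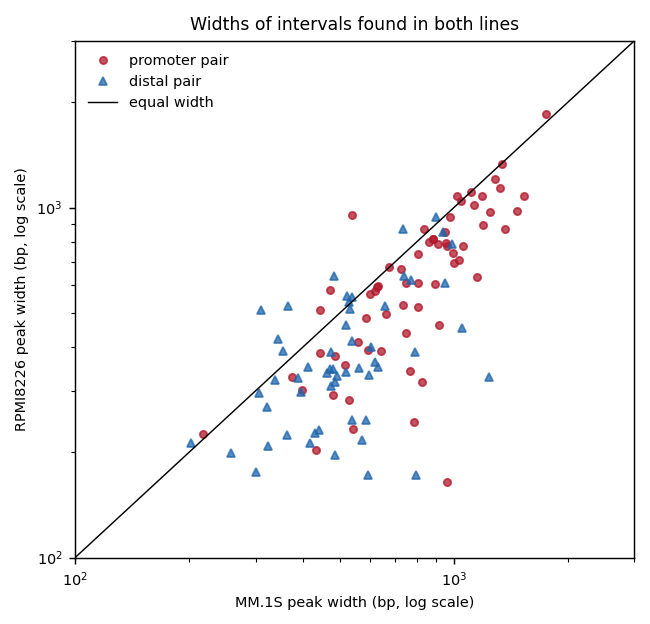
Each point is an interval found once in each line, with its width in MM.1S (x axis, bp, log scale) and in RPMI8226 (y axis, bp, log scale), as circles for promoter pairs and triangles for distal pairs. Of 119 points, 99 lie under the line of equal width.

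Line-only peaks differed in support. In MM.1S, 12 of the group's 49 line-only peaks were in all 9 libraries, 6 of them distal, and in RPMI8226 15 of 44 were in all 5, 9 of them distal. These shares, 24.5% (interval 14.6% to 38.1%) and 34.1% (interval 21.9% to 48.9%), were near those of all line-only peaks (27.5% and 43.6%). CCND1 and CCND2 had none in either line. CDK6 had 4 in RPMI8226 and 1 in MM.1S, and E2F1 had 2 and 3. The line-only peaks were narrower than the shared ones, with median widths of 395 bp against 638 bp in MM.1S and 262 bp against 491 bp in RPMI8226. The lists differed the same way (441 bp against 607 bp, and 292 bp against 421 bp). A line-only peak can also be a region called in fewer than 3 libraries of the other line, which the lists do not show.

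Other genes of the G1 to S pathway, a list of 22 that held the RB family, further E2F factors, other cyclins and the INK4 inhibitors among others, was counted in the same way. In MM.1S 19 of 22 and in RPMI8226 21 of 22 had an own promoter peak, each in all libraries of the line. Among all protein-coding genes 69.2% and 66.5% had one in all libraries. Their windows held 262 peaks in MM.1S, of which 72.9% were shared (list 64.6%) and 65.6% had full support (list 52.0%). In RPMI8226 they held 308, of which 66.9% were shared (list 62.0%) and 70.1% had full support (list 64.1%). RB1, whose product the D-type cyclin kinases phosphorylate, had 11 peaks in MM.1S and 24 in RPMI8226, with 10 and 11 of them shared. CDKN1C, the third member of the family of CDKN1A and CDKN1B, had 16 and 10 peaks, with 8 shared in each line. The genes without an own promoter peak were CDKN2A, CDKN2B and CDKN2C in MM.1S and CDKN2C in RPMI8226. These encode INK4 inhibitors of CDK4 and CDK6. Another INK4 gene of the list, CDKN2D, had an own promoter peak in 9 of 9 MM.1S and 5 of 5 RPMI8226 libraries.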

How the data were processed

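Omni-ATAC libraries of MM.1S and RPMI8226 were sequenced as paired ends by the authors. Per the study's methods, reads were aligned to hg38 with Bowtie2, multiply mapped reads and duplicates were removed, MACS3 called peaks per library, and peaks found in at least 3 libraries of a line were kept. Tool versions are not given in the sources used here. The authors deposited 1 peak list per line with 1 number per peak, of no named unit (other), read here from its range as the number of supporting libraries. No read counts or values of single libraries were used. Depth per library is stated by the study but does not enter the lists, and 0 columns of single samples were left unused. Deposited starts were read as 0-based and are printed 1-based.

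Gene bodies and start sites came from GENCODE 44. Windows extended 100 kb on each side, a promoter peak lay within 2500 bp of any annotated start site, and shared meant an overlap of at least 1 bp. Letter matches to 15 motifs were sought on both strands, in whole peaks and in the 200 bp about each peak's centre (central 200 bp). That width was kept where the peak was narrower. The motifs used in the text were E2F, AP-1, MAF core, GC box, CCAAT box and p53. Letters are given at first use, except for p53, searched as its 20-base consensus with at most 2 mismatches. CRE, E-box, STAT, ISRE, ETS-IRF, FOXO, RUNX, ETS and CTCF were also searched. Python 3.11.15, numpy 2.4.6, scipy 1.17.1, pysam 0.24.0 and matplotlib 3.10.9 were used, and the overlap code was tested on simulated data. The genes and lists were chosen with earlier results of these data known. The rule for named regions took the start site peak, the widest distal peak and the longest line-only run of each gene. Other regions named, and the stretches whose sequence is printed, were chosen after their values were seen. A region is not reported here.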

Additional observations from a re-analysis of the deposited data

How the results depend on the processing

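The number of genes with an own promoter peak in all libraries was 10 in each line under each alternative promoter definition. With gene bodies alone the windows held 52 MM.1S and 64 RPMI8226 peaks, with peaks nearest to the gene's own start site 60 and 62, and with peaks at least as wide as the list median 98 and 94. Restricted to full support, 101 MM.1S peaks remained. The distal share was 34.7% and 35.1% among wide peaks, 34.7% and 41.9% among peaks with full support, 60.6% and 62.4% with a promoter window of 1000 bp, 38.9% and 39.3% with 5000 bp, and 61.1% and 62.4% with start sites of protein-coding transcripts only. The shared share was 84.7% and 90.4% among wide peaks, 88.1% and 87.9% among peaks with full support, 59.4% and 58.4% where the overlap had to cover 50% or more of each peak, and 86.5% in MM.1S gene bodies. Full support was 81.6% and 90.4% among wide peaks. These alternatives select or define peaks differently by construction. The number of peaks per gene changed by over 1.5 times at 6 of 10 genes in MM.1S and 4 in RPMI8226 with flanks of 50 kb, at 9 and 9 in gene bodies, at 10 and 7 with nearest peaks and at 7 and 8 with wide peaks.

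No paired analysis was possible because each list pools the libraries of a line, and leaving out a replicate was not possible for the same reason. The lists do not carry depth. By the study's counts 1 MM.1S library was shallow, and the other MM.1S libraries were deeper than those of RPMI8226. A peak missing from a list is a region not called in at least 3 libraries, not closed chromatin. The lines differ in library number (9 and 5), which sets the range of the support number.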

Other observations

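CDKN2C, which encodes the CDK4 and CDK6 inhibitor p18, had no peak in its RPMI8226 window. The nearest RPMI8226 peaks on either side were 562.6 kb apart, on chromosome 1, and MM.1S had 7 peaks in that stretch. The MM.1S window of CDKN2C held 3 peaks, none over the gene. CDKN2A and CDKN2B, on chromosome 9, lay together in a stretch of 64.7 kb without an MM.1S peak, where RPMI8226 had 3 peaks. These stretches were noticed after the values were seen, and no copy number data were used here.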
